A study of Mus musculus with 8 samples.

Results

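The genes of the tetraspanin family were measured in mouse medulloblastoma cells sorted by Sox2. Its members were taken by name, as every gene whose symbol is Tspan followed by a number together with Cd9, Cd37, Cd53, Cd63, Cd81, Cd82, Cd151, Upk1a, Upk1b, Rom1 and Prph2, which gave 30 of the 22180 genes measured. All cells came from tumours of mice with the genotype Patched1+/- on CD1 and Sox2eGFP with B6 parents, irradiated with 3 Gy as newborns and killed at more than 70 days of age when a brain tumour showed. Loss of Patched1 leaves Hedgehog signalling unchecked, and radiation at birth makes such tumours more frequent; both fractions carried the genotype and the exposure. Cells bearing CD45, a white blood cell protein, or Ter119, a red blood cell protein, were removed, and the rest were sorted by the Sox2 eGFP reporter into cells with it (Sox2-positive) and without it (Sox2-negative). Each fraction was measured on 4 arrays, and each array held the RNA of a pool of 3 tumours, so that no value belongs to a single animal.

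Tetraspanins are small membrane proteins with a short and a long extracellular loop. They bind integrins, immunoglobulin-domain proteins, proteases and receptors within the membrane and sort these partners to the cell surface, to endosomes or into released vesicles. In the brain, Tspan2, Tspan3, Cd9, Cd81 and Cd82 are known from cells of the oligodendrocyte lineage, Cd81 and Cd9 also from astrocytes, and several members from neurons. A pool-level measurement cannot tell a change in RNA per cell from a change in the share of a cell type.

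All values below are RMA values on the log2 scale, as deposited, and a difference is the Sox2-positive mean less the Sox2-negative mean. A gene was called where limma gave an adjusted p under 0.05 over all 22180 genes. Of all genes 8.47% were called, 5.96% higher and 2.52% lower in Sox2-positive cells. Sox2 served as the check of the sort, with 5.67, 6.07, 6.36 and 5.68 in Sox2-positive pools 1 to 4 and 4.05, 4.60, 4.49 and 4.04 in Sox2-negative pools 1 to 4. Its groups did not overlap, but only Sox2-positive pools 2 and 3 lay above 5.80, the guide to background described below. Correlations between arrays over all genes ran from 0.942 to 0.968 across the fractions and from 0.973 to 0.987 within them. All 10 oligodendrocyte progenitor markers were higher in Sox2-positive cells, with a mean over the list of 8.04 to 8.71 against 5.95 to 6.07. Of 10 astrocyte markers 7 were higher (list mean 7.14 to 7.80 against 6.42 to 6.56), and of 10 mature oligodendrocyte markers 4 were higher (6.01 to 6.96 against 5.59 to 5.75). Of 10 granule neuron progenitor markers 9 were lower (8.12 to 8.30 against 8.84 to 9.22), and of 10 neuronal markers 4 were lower (7.46 to 7.75 against 7.89 to 8.26). The part that these shifts had in the tetraspanin differences was not tested.

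Of the members, 6 rose and Tspan14 fell. The promoters of the 4 genes with the largest increases are shown, from 250 bases before to 50 bases after a RefSeq transcription start on GRCm38.p6. Whether these genes share regulation was not tested. Capitals mark E-boxes, CANNTG, the letters bound by basic helix-loop-helix factors such as Olig2. The Cd81 promoter lies at chr7:143052500-143052799 on the + strand, that of Tspan3 at chr9:56161021-56161320 on the - strand, that of Tspan6 at chrX:133898380-133898679 on the - strand, and that of Cd151, the first of its 2 listed starts, at chr7:141467112-141467411 on the + strand.
Cd81: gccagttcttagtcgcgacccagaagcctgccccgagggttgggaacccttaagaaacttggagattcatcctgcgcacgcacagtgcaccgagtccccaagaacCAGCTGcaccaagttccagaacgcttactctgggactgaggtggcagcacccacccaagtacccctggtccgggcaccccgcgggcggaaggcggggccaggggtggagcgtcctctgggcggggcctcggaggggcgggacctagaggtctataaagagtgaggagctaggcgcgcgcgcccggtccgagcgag
Tspan3: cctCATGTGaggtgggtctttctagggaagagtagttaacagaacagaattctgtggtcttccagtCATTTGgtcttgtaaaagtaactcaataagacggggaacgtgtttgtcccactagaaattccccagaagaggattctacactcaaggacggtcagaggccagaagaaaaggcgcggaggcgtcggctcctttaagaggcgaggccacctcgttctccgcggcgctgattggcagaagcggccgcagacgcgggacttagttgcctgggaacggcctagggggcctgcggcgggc
Tspan6: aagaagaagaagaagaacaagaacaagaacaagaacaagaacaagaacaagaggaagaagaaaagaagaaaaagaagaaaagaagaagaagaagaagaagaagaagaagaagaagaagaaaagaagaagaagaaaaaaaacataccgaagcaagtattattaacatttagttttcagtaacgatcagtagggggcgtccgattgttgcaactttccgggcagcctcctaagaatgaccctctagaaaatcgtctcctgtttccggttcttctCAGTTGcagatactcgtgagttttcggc
Cd151: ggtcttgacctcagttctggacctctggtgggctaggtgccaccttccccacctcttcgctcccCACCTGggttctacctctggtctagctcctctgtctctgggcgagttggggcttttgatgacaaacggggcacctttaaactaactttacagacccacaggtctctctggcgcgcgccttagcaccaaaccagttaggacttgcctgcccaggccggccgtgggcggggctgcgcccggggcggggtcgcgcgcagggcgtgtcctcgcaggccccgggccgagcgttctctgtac

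The 4 sequences differed in base composition. That of Cd81 had 23 CG dinucleotides and 3 matches to the GC box GGGCGG, while that of Tspan6 had 9 CG dinucleotides, no GC box and a long purine-rich repeat at its upstream end; the median over all 32851 RefSeq promoters of the same length was 7. An E-box on either strand was found in 26 of the 38 promoters of 28 members (68.4%) and in 72.3% of all promoters. The SOX letters ACAANG, searched on both strands, were in 15 of the 38 (39.5%) and in 41.2% of all promoters, and in none of the 4 printed. The GLI letters GACCACCCA were in 0 of the 38 and in 0.253% of all promoters, also searched on both strands. A match describes letters in this window only.

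Of the 30 members, 6 were higher and 1 was lower in Sox2-positive cells (23.3%), where 8.47% of all genes were called, 5.96% higher and 2.52% lower. The other 23 did not pass the test. The family was chosen with earlier results of these data known, and its share was not tested against that of all genes. At an unadjusted p under 0.05, 10 members were higher and 3 lower, where 20.1% of all genes were past it, 10.4% higher and 9.69% lower. The median log2 difference over the 30 members was 0.08, against -0.03 over all genes, and it was -0.007 without Sox2-negative pool 2. The median size of the difference without its sign was 0.16, against 0.11 over all genes. The 4 values of each group were fully apart for 8 members, against 13.7% of all genes. Sox2-positive values lay above for 7 of them (7.63% of all genes) and below for Tspan14 (6.07% of all genes). For 9 members both group means lay below 5.80, the upper quartile of 1394 olfactory and vomeronasal receptor genes that these cells are not known to use, and of those Tspan2 alone was called. Both fractions could be near background for such genes, and a fold there can understate a difference.

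**Figure D1:**
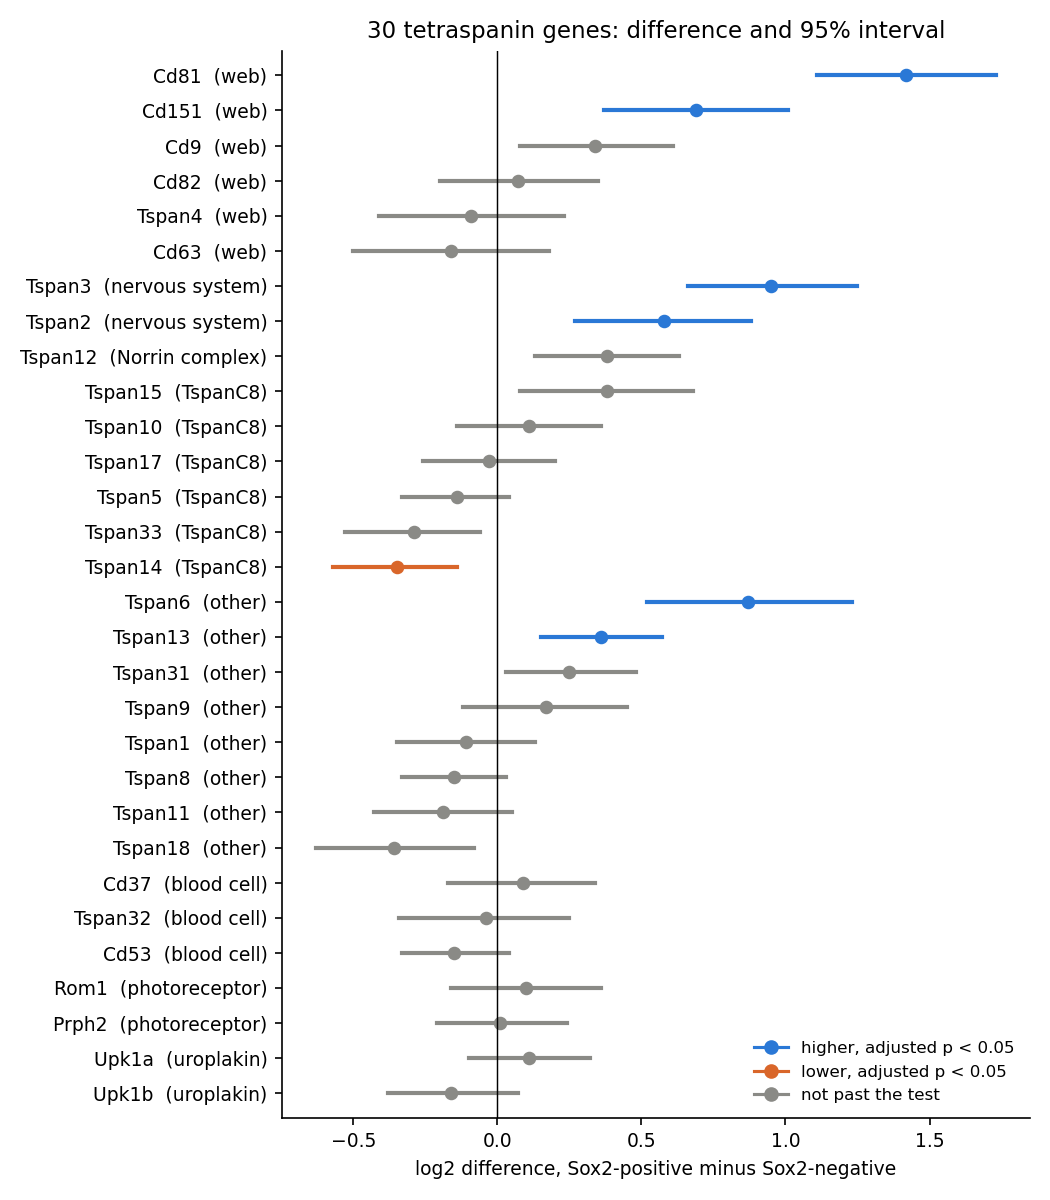
Log2 difference (Sox2-positive minus Sox2-negative; point) and 95% interval (line) for the 30 tetraspanin genes, ordered by role as given in brackets, n = 4 pools per group. Cd81 lies farthest to the right at 1.42, and Tspan14 is the one member called lower, at -0.35.

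The web tetraspanins, named for the membrane networks they form with each other and with integrins, divided. Cd81, a partner of Igsf8 and Ptgfrn and a usual marker of released vesicles, was the member that differed most. It was at 10.49, 10.97, 11.04 and 10.59 in Sox2-positive pools 1 to 4 and at 9.24, 9.55, 9.54 and 9.09 in Sox2-negative pools 1 to 4. The groups were separated by 0.95, the widest gap among the 30 members. The mean was 10.77 ± 0.27 against 9.35 ± 0.23 (SD, n = 4), a 2.68-fold increase (log2 difference 1.42, 95% interval 1.11 to 1.73; limma adjusted p = 2.10e-05). This difference ranked 187 of 22180 genes from the top.

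Cd151 binds laminin-binding integrins and holds cells to the basement membrane. Its values were 6.67, 6.69, 7.17 and 6.74 in Sox2-positive pools and 6.09, 5.75, 6.43 and 6.25 in Sox2-negative pools. Sox2-positive pool 3 stood above the rest, and even the lowest Sox2-positive pool lay above every Sox2-negative pool. The increase was 1.61-fold (log2 difference 0.69, 95% interval 0.37 to 1.01; limma adjusted p = 0.00948).

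Cd9, which acts in cell fusion and is carried by late oligodendrocyte progenitors, was not called. Its brighter probe set gave 8.08, 8.59, 8.56 and 8.38 in Sox2-positive and 8.02, 8.30, 8.0 and 7.92 in Sox2-negative pools. Only Sox2-positive pool 1 fell among the Sox2-negative values, and the log2 difference was 0.34 (95% interval 0.08 to 0.61; limma adjusted p = 0.120). Without that pool the call was made (log2 difference 0.45, adjusted p = 0.0268). The second, dimmer probe set of Cd9 pointed the other way, with 5.88, 5.75, 5.49 and 5.88 against 6.03, 6.05, 5.72 and 6.27 and a difference of -0.27 in log2 (95% interval -0.54 to 0.00; limma adjusted p = 0.261 over 23521 probe sets). Averaging both brought the difference of Cd9 to 0.04 (adjusted p = 0.870), so that no direction can be given for this gene.

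**Figure D2:**
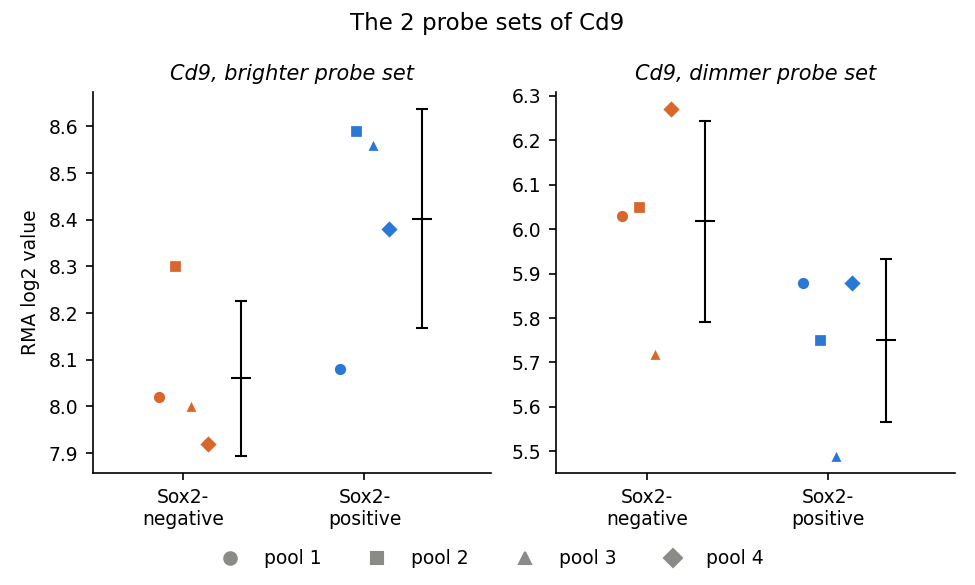
RMA log2 values of Cd9 in its brighter (left) and dimmer (right) probe set, by pool (marker shape) and fraction (colour), with mean and SD at the side, n = 4; the vertical scales differ. Sox2-positive pools lie mostly above in the left panel (difference 0.34) and mostly below in the right panel (-0.27).

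Cd63, the tetraspanin of late endosomes and lysosomes and another vesicle marker, did not pass. It was at 7.78, 7.61, 8.16 and 7.76 in Sox2-positive and at 7.86, 8.25, 8.25 and 7.59 in Sox2-negative pools. The groups overlapped throughout (log2 difference -0.16, 95% interval -0.50 to 0.18; limma adjusted p = 0.636). Cd82, a suppressor of metastasis, was at 6.08, 6.29, 6.10 and 6.37 against 6.12, 5.77, 6.30 and 6.36. Here Sox2-negative pool 2 was low and the other pools intermingled (log2 difference 0.07, 95% interval -0.20 to 0.35; adjusted p = 0.819). Tspan4, found on the retraction fibres and migrasomes of moving cells, had a difference of -0.09 (-0.41 to 0.23; adjusted p = 0.813). Thus Cd81 and Cd151 rose among the 6 web members, where 5.96% of all genes were called higher. The differences of Cd82 and Tspan4 changed sign with Sox2-negative pool 2 (Cd82, -0.05) or pool 3 (Tspan4, 0.04) left out.

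**Figure D3:**
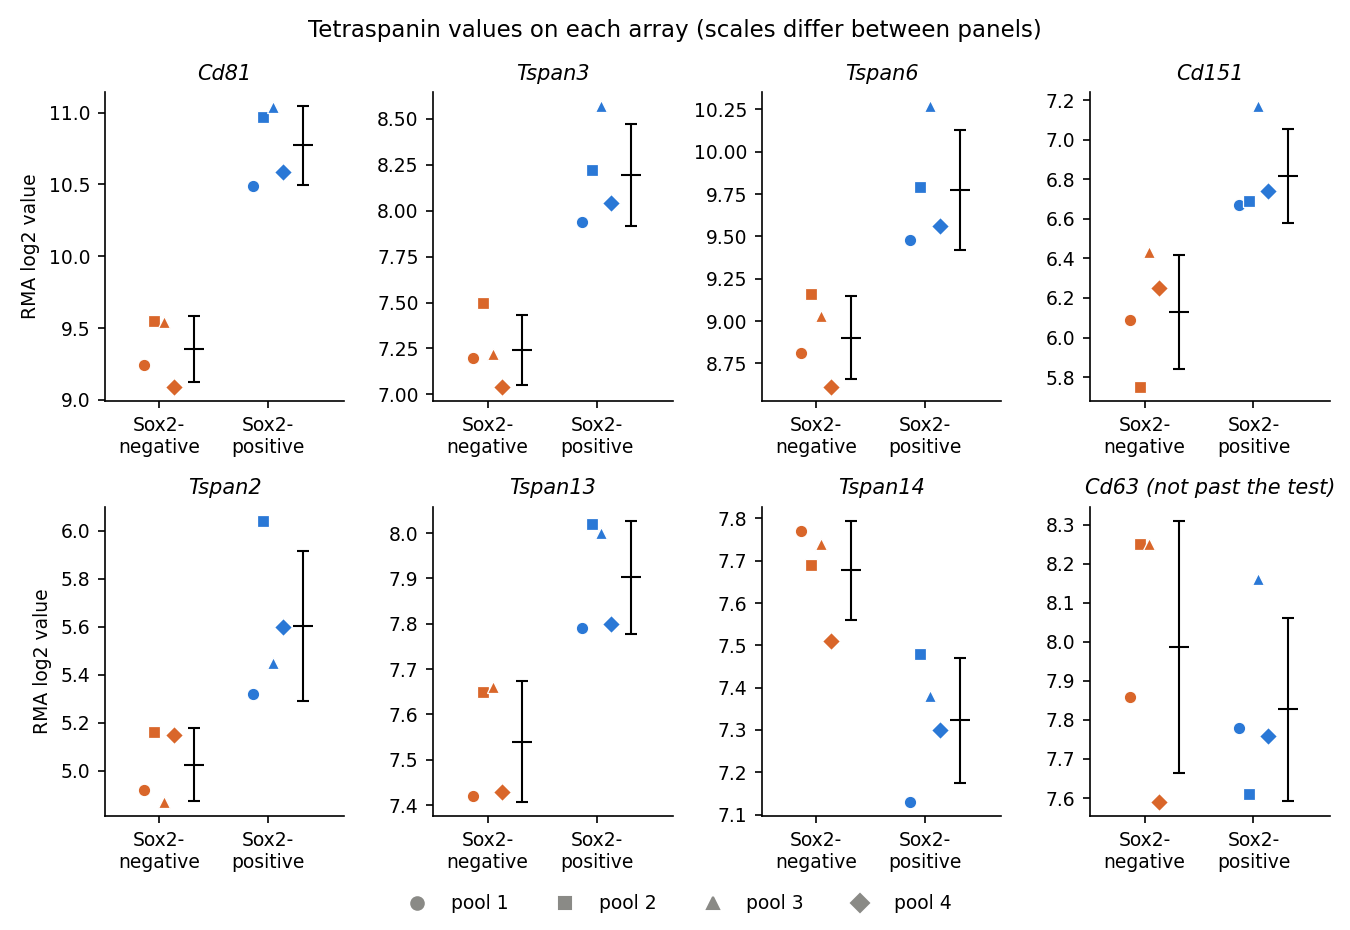
RMA log2 values of the 7 called tetraspanins and of Cd63, by pool (marker shape) and fraction (colour), with mean and SD at the side of each group (n = 4); vertical scales differ between panels. The fractions are apart in the 7 called genes, by 0.95 for Cd81 and by 0.03 for Tspan14, and overlap for Cd63.

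Of the nervous system members, Tspan3 and Tspan2 both rose, where 5.96% of all genes were called higher. Tspan7 was not among the 22180 genes measured. Tspan3 is a binding partner of Cldn11, the claudin of myelin. It was at 7.94, 8.22, 8.57 and 8.04 in Sox2-positive and at 7.20, 7.50, 7.22 and 7.04 in Sox2-negative pools. All Sox2-positive pools lay above all Sox2-negative pools. The increase was 1.93-fold (log2 difference 0.95, 95% interval 0.66 to 1.25; limma adjusted p = 0.000436).

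Tspan2 is known for its rise as oligodendrocytes mature. It was at 5.32, 6.04, 5.45 and 5.60 in Sox2-positive pools and at 4.92, 5.16, 4.87 and 5.15 in Sox2-negative pools. Sox2-positive pool 2 was the highest of the 8 and the only one above 5.80. The log2 difference was 0.58 (95% interval 0.27 to 0.88; limma adjusted p = 0.0198), a 1.49-fold increase at a level near background. This call ended without Sox2-negative pool 1 (adjusted p = 0.0662) or pool 3 (0.0552). In the Sox2-positive pools, the mean of the mature oligodendrocyte markers was 6.01, 6.96, 6.21 and 6.38, the same order of pools as for Tspan2. In Sox2-negative pools 1 to 4 that mean was 5.65, 5.63, 5.59 and 5.75, which was not the order of Tspan2 there. The share of all genes with the Sox2-positive order was not counted, and the part of these markers in the difference was not tested. Tspan2os, the antisense gene of the Tspan2 locus, had a difference of -0.09 (95% interval -0.27 to 0.09). Its means of 4.07 and 4.16 in Sox2-positive and Sox2-negative pools lay well below 5.80, so a difference could be missed.

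Tspan6, on the X chromosome and linked to the sorting of endosomal cargo, rose 1.83-fold. It was at 9.48, 9.79, 10.27 and 9.56 in Sox2-positive and at 8.81, 9.16, 9.03 and 8.61 in Sox2-negative pools. The groups were 0.32 apart, with Sox2-positive pool 3 well above the others (log2 difference 0.87, 95% interval 0.52 to 1.23; limma adjusted p = 0.00377).

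Tspan13 has been described as a partner of the N-type calcium channel. It was at 7.79, 8.02, 8.0 and 7.80 in Sox2-positive and at 7.42, 7.65, 7.66 and 7.43 in Sox2-negative pools. In both fractions pools 2 and 3 stood above pools 1 and 4. The groups did not overlap, and the log2 difference was 0.36 (95% interval 0.15 to 0.57; limma adjusted p = 0.0367). The call was lost when pool 2 (0.121) or 3 (0.107) of the Sox2-positive fraction, or pool 1 (0.117) or 4 (0.0978) of the Sox2-negative one, was left out. Tspan31, whose gene adjoins that of the cell cycle kinase Cdk4, had a difference of 0.25 (95% interval 0.03 to 0.48; adjusted p = 0.189), with groups that overlapped.

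Cd81, Tspan3 and Tspan6 shared the ranking of pools within each fraction, from high to low 3, 2, 4, 1 among the Sox2-positive arrays and 2, 3, 1, 4 among the Sox2-negative ones. Sox2 itself had this ranking in both fractions, as did 228 of 22180 genes in all (1.03%). No other member had it in both. The ranking was taken from Cd81 and rests in places on near-ties. Cd81 was at 9.55 and 9.54 in Sox2-negative pools 2 and 3. Sox2 was at 5.68 and 5.67 in Sox2-positive pools 4 and 1, and at 4.05 and 4.04 in Sox2-negative pools 1 and 4. Whether these genes follow Sox2 from pool to pool was not tested.

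**Figure D4:**
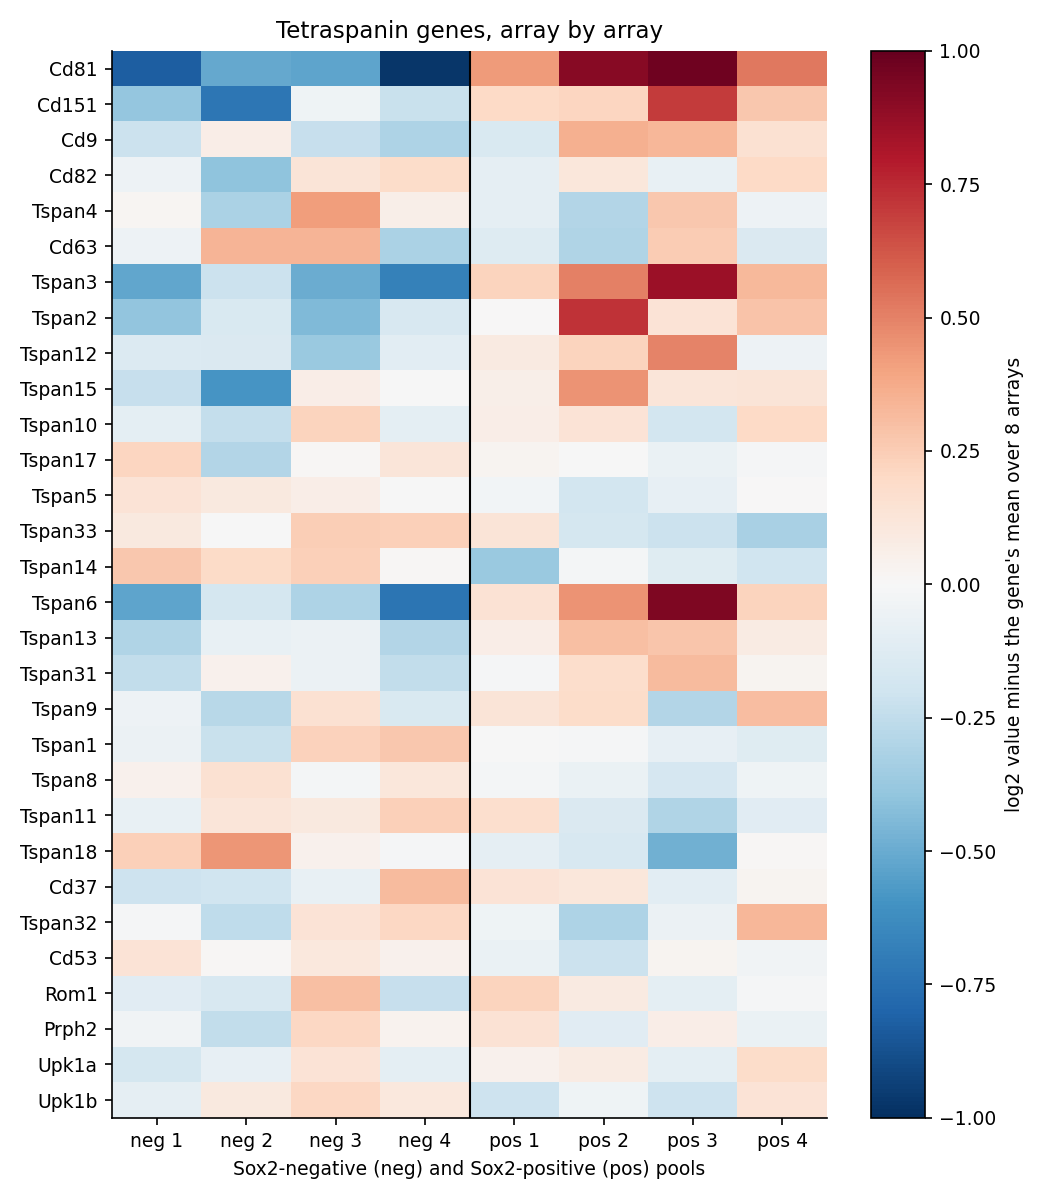
Each tetraspanin's log2 value on an array minus its mean over all 8 arrays (colour, red above and blue below the mean), with Sox2-negative pools on the left and Sox2-positive pools on the right of the line. Cd81, Tspan3, Tspan6, Cd151 and, more faintly, Tspan13 change from blue to red at the line. Sox2-positive pool 3 is the reddest for Cd81, Tspan3, Tspan6, Cd151 and Tspan12, among others.

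The TspanC8 tetraspanins escort the protease Adam10, which sheds Notch and cadherins, out of the endoplasmic reticulum and influence which substrates it cuts. Of the 6, Tspan14 was lower and 0 were higher by limma, where 8.47% of all genes were called; at an unadjusted p under 0.05, 1 was higher and 2 were lower, where 20.1% of all genes were past it. Tspan14 was at 7.13, 7.48, 7.38 and 7.30 in Sox2-positive and at 7.77, 7.69, 7.74 and 7.51 in Sox2-negative pools. Its groups came within 0.03 of each other. The level fell by 0.35 on the log2 scale (SE 0.10; limma adjusted p = 0.0431). The call was lost with a variance trend (0.0514) and with any of Sox2-positive pools 1, 3 and 4 and of Sox2-negative pools 1, 2 and 3 left out (0.0739 to 0.128).

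Tspan15, which directs Adam10 to N-cadherin, pointed the other way. It was at 6.46, 6.85, 6.52 and 6.53 in Sox2-positive and at 6.17, 5.81, 6.47 and 6.40 in Sox2-negative pools, and the ranges met at their edges (log2 difference 0.38, 95% interval 0.08 to 0.68; limma adjusted p = 0.133). For Tspan33 the difference was -0.29 (95% interval -0.53 to -0.06; adjusted p = 0.136), and it was called without Sox2-positive pool 1 (0.0352). Tspan5 (-0.14), Tspan10 (0.11) and Tspan17 (-0.03) did not pass. Adam10 was at 7.33 ± 0.21 against 7.50 ± 0.26 (SD, n = 4), which leaves a difference of -0.18 (95% interval -0.47 to 0.12; adjusted p = 0.526).

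Tspan12 is the tetraspanin of the Norrin receptor, formed with Fzd4 and Lrp5. It was at 7.16, 7.29, 7.56 and 7.02 in Sox2-positive and at 6.93, 6.92, 6.70 and 6.96 in Sox2-negative pools. The groups did not overlap, by 0.06, but the test was not passed (log2 difference 0.38, 95% interval 0.13 to 0.63; limma adjusted p = 0.0632). It was passed without Sox2-positive pool 4 (0.0347) and with the dimmest genes left out (0.0476). Fzd4 (0.11, 95% interval -0.12 to 0.34) and Lrp5 (0.17, -0.08 to 0.43) did not pass, and the ligand gene Ndp had a difference of 0.40 (adjusted p = 0.0746; 0.0109 with the replicate block).

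Tspan18, a tetraspanin of endothelial cells that binds the calcium channel Orai1, had the most negative difference of the 30 and did not pass. It was at 7.76, 7.69, 7.37 and 7.86 in Sox2-positive and at 8.09, 8.29, 7.89 and 7.84 in Sox2-negative pools, so that Sox2-positive pool 4 lay just above Sox2-negative pool 4 (log2 difference -0.36, 95% interval -0.63 to -0.08; limma adjusted p = 0.114). Of 10 endothelial markers 0 passed by limma (1 lower at an unadjusted p under 0.05), with a list mean of 5.23 to 5.30 against 5.31 to 5.45. Tspan11, the nearest relative of Cd151, had a difference of -0.19 (adjusted p = 0.373). Tspan9 (0.17), Tspan8 (-0.15) and Tspan1 (-0.11) had both means below 5.80 and did not pass.

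The members of blood cells were compared between fractions that had both been depleted of CD45+ cells. A difference between fractions therefore cannot show how complete the depletion was. Cd37 and Cd53, of lymphocytes and other leukocytes, and Tspan32, of blood cells, gave 0 calls by limma and 0 at an unadjusted p under 0.05. Of all genes 8.47% were called and 20.1% were past the unadjusted threshold, so 0 among so few genes says little. Tspan32 had both means below 5.80 (4.89 against 4.93), and Cd37 (5.85 against 5.76) and Cd53 (5.72 against 5.87) lay close to it. Cd53 ranged from 5.58 to 5.82 in Sox2-positive and from 5.81 to 5.93 in Sox2-negative pools, and Cd37 from 5.70 to 5.94 and from 5.60 to 6.12. Of 10 microglial markers 0 passed by limma (2 lower at an unadjusted p under 0.05), with a list mean of 5.59 to 5.73 against 5.65 to 5.81 and 6 of the 10 below 5.80 in both groups. Cx3cr1 (mean 7.26 against 7.18), Cd68 (6.71 against 6.70) and Tyrobp (6.34 against 6.35) lay above 5.80 in both.

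Members of other specialised membranes were at or near the level of the receptor genes. Prph2 and Rom1, which shape the rims of photoreceptor discs, ranged from 4.68 to 5.99 over the 8 arrays, with differences of 0.01 and 0.10. Upk1a and Upk1b, of the plaques of the bladder lining, had differences of 0.11 and -0.16. None of these 4 was called by limma, and 0 had an unadjusted p under 0.05. The shares over all genes were 8.47% and 20.1%, so 0 among 4 genes says little.

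Some members lie near each other on a chromosome. Cd81 (1.42) is next to Tspan32 (-0.04, 95% interval -0.34 to 0.25) in the RefSeq gene order. Cd151 (0.69) is separated by Polr2l alone from Tspan4 (-0.09, 95% interval -0.41 to 0.23). Tspan18 (-0.36, 95% interval -0.63 to -0.08) adjoins Cd82 (0.07, -0.20 to 0.35), and the intervals overlap. They also overlap for Tspan11 (-0.19, -0.43 to 0.05) and the adjoining Tspan9 (0.17, -0.12 to 0.45). The differences within these pairs were not tested.

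Genes of proteins that bind tetraspanins moved in both directions. Of 25 measured, 4 were higher and 4 lower (32.0%, against 8.47% of all genes), with a median log2 difference of 0.11. The list was chosen with earlier results of these data known, so its share cannot be read as enrichment. Cldn11, the partner of Tspan3, was at 7.44, 9.71, 7.82 and 9.06 in Sox2-positive and at 6.81, 6.65, 6.94 and 7.22 in Sox2-negative pools. It is also 1 of the 10 mature oligodendrocyte markers. The Sox2-positive values were far apart, with pools 2 and 4 high, and the 3.04-fold increase (limma adjusted p = 0.0158) lost its call with pool 4 of the Sox2-positive fraction left out (0.0523) and under a variance trend (0.0949).

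Of the integrin chains bound by Cd151, Itgb1 was 1.38-fold higher (limma adjusted p = 0.0307), and Itga3 (log2 difference 0.17), Itga6 (0.28) and Itgb4 (0.01) did not pass. Both means of Itga3 (4.71 against 4.54) and of Itgb4 (5.45 against 5.44) lay below 5.80, where a difference can be missed. The call of Itgb1 was no longer made with pool 2 or 3 of the Sox2-positive or pool 3 or 4 of the Sox2-negative fraction left out (0.0735 to 0.0914). Itga7, the laminin receptor chain best known from muscle, fell by 0.90 (SE 0.10; adjusted p = 6.66e-05), from 7.91 ± 0.18 to 7.01 ± 0.09 (SD, n = 4).

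Cd81 binds Igsf8 and Ptgfrn, and neither followed its increase past the test. Igsf8 fell by 0.32 (limma adjusted p = 0.0341), with a Sox2-positive range of 5.38 to 5.60 and a Sox2-negative range of 5.68 to 5.84, both means being below 5.80; this call ended with quantile normalization and without 6 of the 8 arrays in turn (adjusted p = 0.0585 to 0.0939). Ptgfrn had a difference of 0.37 (adjusted p = 0.0653; 0.0375 with the replicate block). Igsf3, of the same family, fell by 0.63 (adjusted p = 0.00422).

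Hbegf, the growth factor precursor bound by Cd9, was 1.30-fold higher (limma adjusted p = 0.0110). Adam17, a sheddase related to Adam10, rose 1.36-fold (adjusted p = 0.0184), which was not called with Sox2-positive pool 3, Sox2-negative pool 1 or Sox2-negative pool 4 left out (0.0519 to 0.0640). Cacna1b, the N-type calcium channel named above with Tspan13, fell by 0.59 (SE 0.10; adjusted p = 0.00124). Without Sox2-positive pool 3, 2 partner genes were higher in place of 4.

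**Figure D5:**
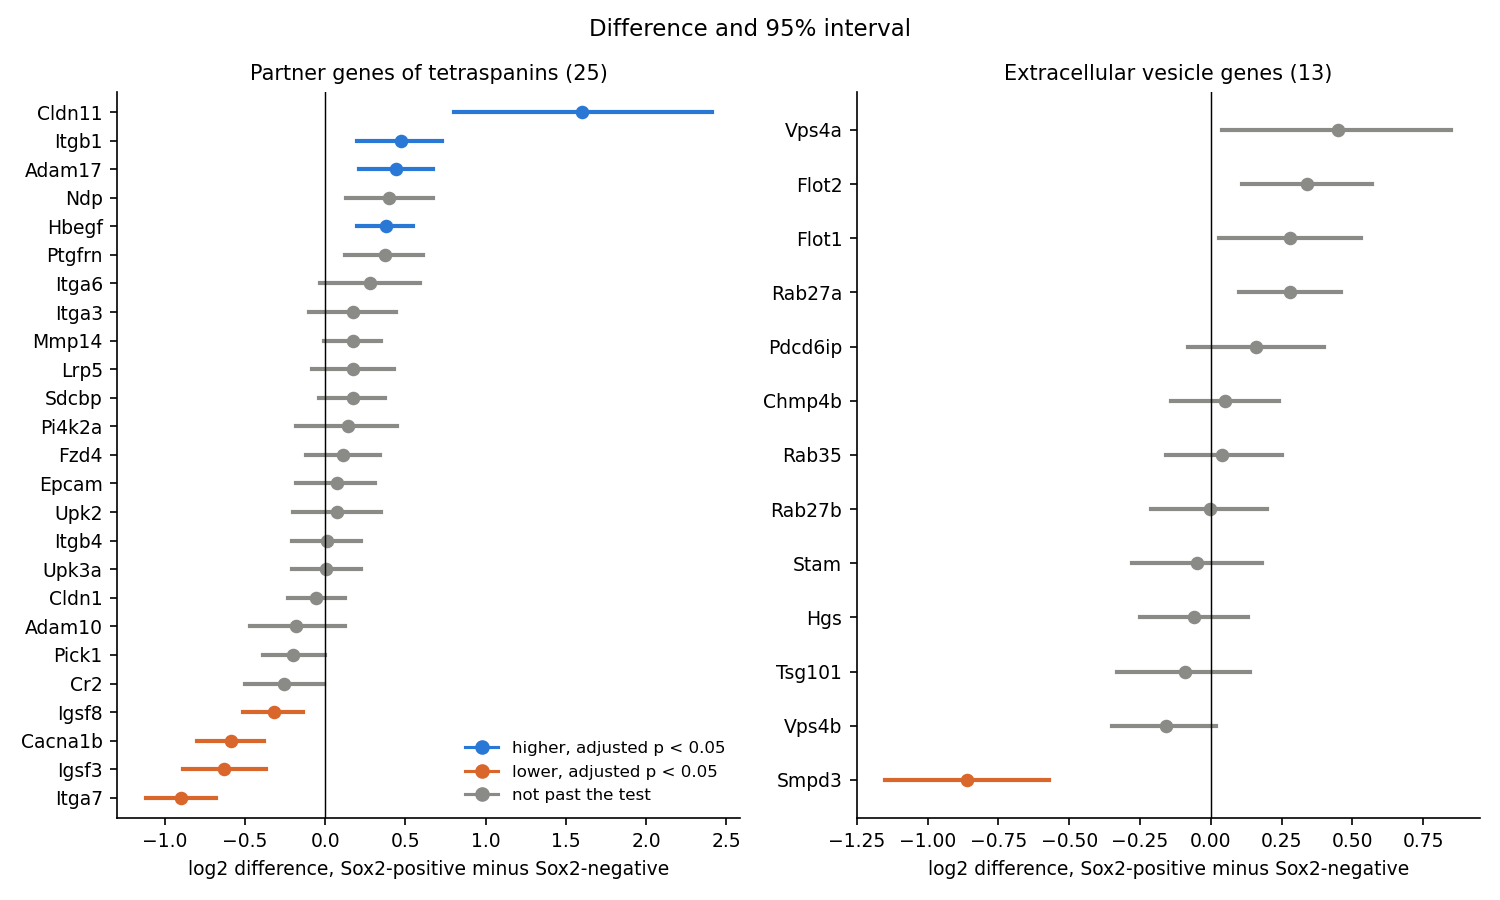
Log2 difference (Sox2-positive minus Sox2-negative; point) and 95% interval (line) for 25 partner genes (left) and 13 extracellular vesicle genes (right), n = 4 pools per group; horizontal scales differ. Cldn11 lies farthest to the right at 1.60 with the widest interval, and Itga7 (-0.90) and Smpd3 (-0.86) farthest to the left.

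Genes that sort cargo into vesicles or release them were called at a share near that of all genes. Of 13, 1 was lower and 0 were higher by limma (7.69%, against 8.47% of all genes); at an unadjusted p under 0.05, 4 were higher and 1 lower, where 20.1% of all genes were past it. The count of higher genes was 2 with quantile normalization (Flot2 and Rab27a, adjusted p = 0.0375 and 0.0205) and 2 with the replicate block. Smpd3, the neutral sphingomyelinase that makes ceramide for vesicle budding, fell by 0.86 (SE 0.13; adjusted p = 0.000844). It was at 6.95, 6.61, 7.24 and 7.21 in Sox2-positive and at 7.79, 7.98, 7.97 and 7.71 in Sox2-negative pools, with no overlap. Those of the block were Vps4a, which disassembles the budding machinery, and the raft protein gene Flot2 (log2 differences 0.45 and 0.34, adjusted p = 0.0245 and 0.0343; 0.195 and 0.0707 without the block). Among the tetraspanins used as vesicle markers, Cd81 thus rose, while Cd63 and Cd9 did not pass.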

How the data were processed

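Per the submitters' processing notes, the deposited log2 values come from the RMA method in Affymetrix Expression Console (version 1.2.0.20), which normalizes arrays to a common distribution and compresses differences of dim genes. The values, from 2.51 to 13.6, show that they are logarithms. The genome build is not given in the sources used here. Of 41345 probe sets, 23521 had 1 gene symbol in the platform annotation; 1814 with several and 16010 unnamed were left out. The probe set with the highest mean was taken for each of 22180 genes.

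The test was that of limma (version 3.58.1, with R 4.3.3; lmFit, then eBayes; group as the only term, two-sided, Benjamini-Hochberg over all genes), tested beforehand on simulated data. No dim gene was removed. The labels do not say whether pools were separate draws of animals across fractions, and the main fit did not pair them. Its p-values set each difference against the spread between pools within a fraction, moderated over all genes. Deviations from the group means correlated at 0.165, 0.114, 0.177 and 0.241 between arrays of equal pool number and at most at 0.161 between others. This pairing comes from the data, not the labels, and a replicate block was an alternative fit. Alternatives were quantile normalization, the block, array weights, a variance trend with robust priors, the mean of probe sets, the dimmest genes left out and each array left out; each probe set tested alone was chosen after seeing the data.

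Members, lists, roles and motifs were chosen with earlier results of these data known. Per-array values were given for every called member and for Cd9, Cd63, Cd81, Cd82, Cd151 and Tspan2 in any case; those of Tspan12, Tspan15, Tspan18 and 2 other genes, Cldn11 and Smpd3, were added after their values were seen. Called partner and vesicle genes were named up to the 8 largest, with Adam10, and further genes of these lists were named after their values were seen. Promoters came from RefSeq on GRCm38.p6, with entries for 28 of 30 members; Tspan18 and Upk1b had none. The number of arrays limits the precision. Other marker lists, by limma, gave for pericytes and fibroblasts 2 higher of 10 (Rgs5, and Cspg4, which is also in the oligodendrocyte progenitor list), for ependymal and choroid cells 0 of 7 (1 lower at an unadjusted p under 0.05), for lymphocytes 0 of 7 and for red blood cells 0 of 2 (both 0 unadjusted).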

Additional observations from a re-analysis of the deposited data

Results flagged for a closer look

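In 6 of 114 groups of 4 pools, a single pool stood farther from the others than Dixon's critical value allows. About 1 in 20 groups would do so by chance. Among the tetraspanins, Cd151 was at 7.17 in Sox2-positive pool 3 against 6.67 to 6.74 in the others, and Tspan12 was at 6.70 in Sox2-negative pool 3 against 6.92 to 6.96. Without these pools Cd151 kept its call and Tspan12 remained without one. Among the other genes named, Hbegf was at 6.23 in Sox2-negative pool 3 against 6.35 to 6.38, and Igsf8 at 5.68 in Sox2-negative pool 1 against 5.81 to 5.84. Olig2 was at 9.85 in Sox2-positive pool 3 against 9.02 to 9.15, and Pax6 at 8.60 in Sox2-negative pool 4 against 8.87 to 8.91.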

How the results depend on the processing

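Cd81, Tspan3, Tspan6 and Cd151 kept their direction and their call in all 14 alternatives, and the calls of Tspan2, Tspan13 and Tspan14 ended in some. The count of higher members was 6 in each alternative that kept all arrays (without the dimmest genes, Tspan12 was called and Tspan2 was not tested) and 4 to 7 with an array left out. The count of lower members was 0 with a variance trend and 0 to 1 with an array left out. Of the 23 members not called, 3 were called in some alternative (Tspan12, Cd9 and Tspan33), and Cd82, Prph2, Tspan4, Tspan17 and Tspan32 changed sign without a call. Over all genes, the replicate block called 1572 higher and 768 lower, in place of 1321 and 558. It left the members' counts at 6 and 1, and among the partner, vesicle and marker genes it changed the calls of Ndp, Ptgfrn, Vps4a, Flot2, Kcnj8, Ttr, Ccnd2, Syt1 and Snap25, each to a call. Higher vesicle genes numbered 2 with quantile normalization, 2 with the block, 1 with array weights and 0 to 1 with an array left out. Higher partner genes numbered 2 to 6 with an array left out. Lower calls over all genes numbered 309 to 591 with an array left out, the fewest without Sox2-positive pool 2; the count was 361 without Sox2-positive pool 4 and 357 without Sox2-negative pool 1. The causes were not tested. Levels near those of the receptor genes limit what can be seen for 9 members.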
